A study of Mus musculus with 36 samples.

Results

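The 9 genes described here, of 55487 genes in the count table, encode enzymes that degrade cyclic AMP (cAMP) and were chosen by name: Pde4a, Pde4b, Pde4c, Pde4d, Pde7a, Pde7b, Pde8a, Pde3a and Pde3b. Their mRNA was followed in mouse embryonic fibroblasts (MEFs) that carry different forms of the glucocorticoid receptor (GR, gene Nr3c1), after 5 h with vehicle or with 1 µM dexamethasone (Dex), a synthetic glucocorticoid. RNA-seq covered 36 libraries, 3 for each combination of genotype, run and treatment. The GRwt/wt libraries are numbered 1 to 3 in run 1 and 4 to 6 in run 2. Run 1 held GRwt/wt cells with the normal receptor, GRD/D cells with a point mutation in the dimer interface of the DNA-binding domain, GRD+L/D+L cells with that mutation and a further one in the ligand-binding domain on the same protein, and GRko/ko cells without functional receptor. Run 2 held GRwt/wt cells and GRL/L cells with the ligand-binding domain mutation alone. All cells were primary cultures from mid-gestation embryos after removal of head and organs. By the study's account each of the 3 cultures per genotype came from a different mouse. By the labels all libraries are of the FVB/NJ strain, but in the study's methods the GR knockout mice have a 129 background.

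cAMP is made by adenylyl cyclases when Gs-coupled receptors are engaged, and it acts through protein kinase A, EPAC exchange factors and the transcription factor CREB. Phosphodiesterases end the signal by hydrolyzing cAMP to AMP. The PDE4, PDE7 and PDE8 enzymes are specific for cAMP, while the PDE3 enzymes also bind cGMP and are slowed by it. PDE4 enzymes are the target of anti-inflammatory drugs such as roflumilast, Pde4b is needed for the full cytokine response of macrophages to endotoxin, and glucocorticoids are used against the same kinds of inflammation.

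The libraries had between 15280166 and 28662608 counts, and the deeper ones were those of run 2. Nr3c1 was at 15.9 to 20.4 CPM (counts scaled to a common library size) in the GRko/ko libraries and at 47.8 to 104.6 CPM in all others. The summed level of 11 fibroblast markers was 31900 to 51300 CPM, most of it from Fn1, Col1a1 and Col1a2, while Lum averaged 2.56 CPM in GRD+L/D+L and 7.94 CPM in GRwt/wt of run 1. Single markers differed widely between the runs. In GRwt/wt of run 1 and run 2, the means were 7.94 and 199 CPM for Lum, 83.7 and 574 CPM for Dcn, and 54 and 372 CPM for Pdgfra. Fn1 went the other way (18300 and 7710 CPM), and Col1a2 moved less (7820 and 8700 CPM). Other measures moved with genotype or run. The summed level of 10 macrophage markers was 193 to 343 CPM in GRwt/wt of run 1, 706 to 844 CPM in GRD/D, 30.4 to 40.6 CPM in GRD+L/D+L, 2750 to 3230 CPM in GRko/ko, 456 to 510 CPM in GRwt/wt of run 2 and 730 to 1030 CPM in GRL/L. None of the 10 was at 0 in any genotype, but 6 of them averaged under 1 CPM in GRD+L/D+L and 1 did in GRwt/wt of run 1. Smooth muscle markers summed to between 9950 and 12700 CPM in run 1 and to between 2420 and 3410 CPM in run 2. The 4 Y-linked transcripts measured summed to at most 2.07 CPM in GRwt/wt of run 1 and GRD/D and to at least 136 CPM in the other genotypes, so that sex and genotype cannot be told apart where GRD+L/D+L or GRko/ko is compared with GRwt/wt. In such bulk libraries, fewer cells of a type and less RNA per cell cannot be told apart either.

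Of the 9 genes, 8 passed the filter on low counts and were tested among 15489 genes. Pde4c, a PDE4 gene that lies on chromosome 8 (70723720 to 70751186, plus strand, mm10), had 0 to 4 counts per library and was not tested. Per kb of exon, Pde8a was the most abundant of the set in all 12 groups. It stood at 10.2 ± 0.472 (SD, n = 3) CPM per kb in vehicle-treated GRwt/wt cells of run 1 and held 36.3% of the summed level of the 9 genes. Pde4a followed with 5.81 ± 0.344 CPM per kb, and then Pde4d with 3.26 ± 0.197, Pde4b with 2.79 ± 0.0828, Pde3a with 1.96 ± 0.0986, Pde7a with 1.91 ± 0.0399, Pde7b with 1.08 ± 0.0333 and Pde3b with 1.06 ± 0.085. The libraries of Pde3a and Pde7a overlapped, as did those of Pde7b and Pde3b, while the other neighbors in this order did not overlap. The order depends on the length used, which covers all annotated exons of a gene (4045 bp for Pde8a and 7655 bp for Pde4a). In CPM, Pde4a had a mean of 44.5 and Pde8a of 41.2 in vehicle-treated GRwt/wt cells of run 1, and their libraries overlapped. In vehicle-treated GRwt/wt cells of run 2 the order below Pde8a was different, with Pde7a (4.55 CPM per kb) and Pde4a (4.28) ahead of Pde3a (3.12), Pde4b (2.79), Pde3b (2.44), Pde4d (1.58) and Pde7b (1.33), where Pde7a overlapped with Pde4a and Pde4d with Pde7b. The levels of the set thus shifted between runs in cells of the same genotype, and for this reason genotypes are compared within a run only.

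The sum of the 9 genes per kb is shown in the plot of stacked levels. With Dex it went from 28.1 ± 0.872 to 21.5 ± 0.687 CPM per kb in GRwt/wt of run 1 and from 32.4 ± 1.09 to 27.5 ± 1.77 in GRwt/wt of run 2 (SD, n = 3). In GRL/L it went from 35.0 ± 0.238 to 29.4 ± 0.437, in GRD/D from 28.9 ± 2.52 to 25.9 ± 0.652, and in GRD+L/D+L from 21.0 ± 0.548 to 20.2 ± 0.822. GRko/ko cells had 22.9 ± 0.269 CPM per kb with vehicle and 22.9 ± 0.42 with Dex. The sum was not tested. Pde4b held 9.93% of it in vehicle-treated GRwt/wt cells of run 1 and 4.07% after Dex, while Pde4a went from 20.7% to 24.6% as its own level went from 5.81 to 5.3 CPM per kb.

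**Figure D1:**
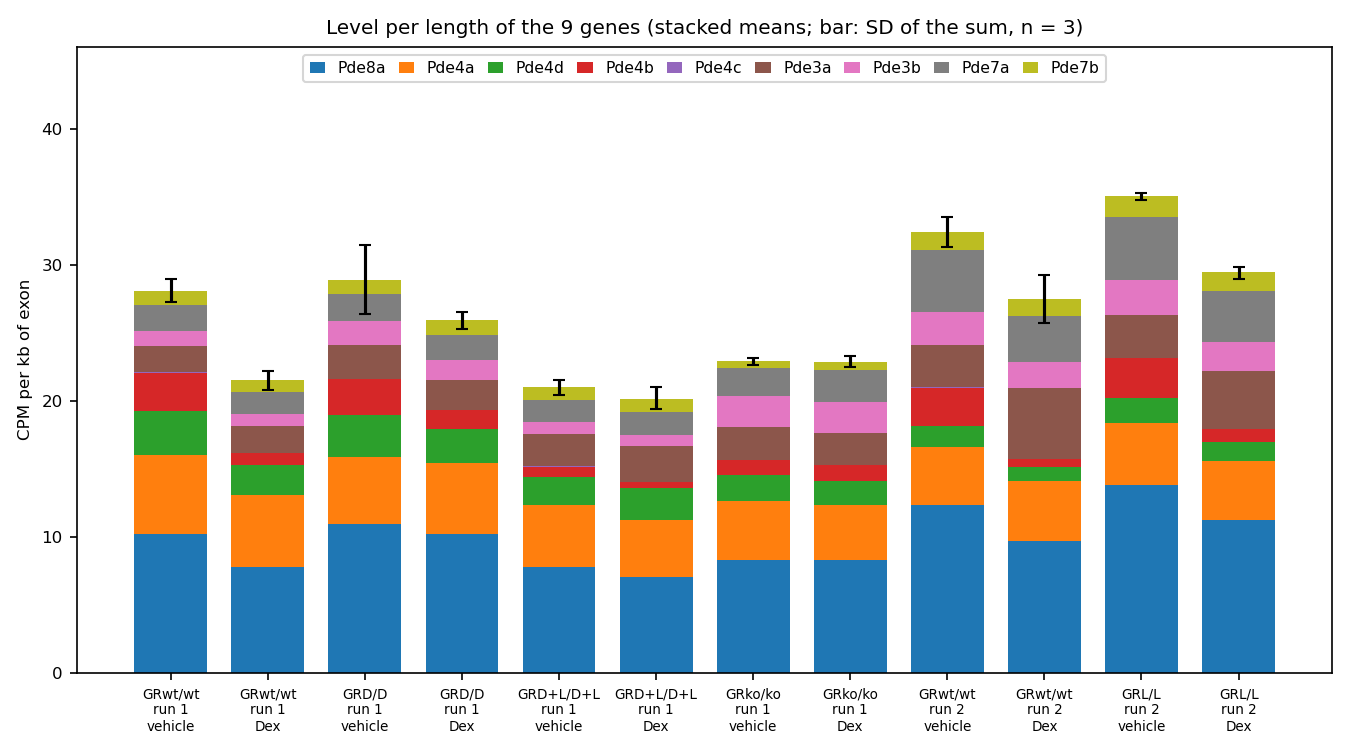
Stacked bars give the mean level of each of the 9 genes in CPM per kb of exon for the 12 groups, and the error bars give the SD of the sum over 3 libraries. Pde8a is the largest segment in every bar, the Pde4b segment shrinks with Dex in all genotypes but GRko/ko, and the Pde3a segment widens with Dex in run 2.

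On the log2 scale, Pde4b was the member with the largest response to Dex in each genotype in which a member passed, while in CPM the rise of Pde3a in GRwt/wt of run 2 was larger (27.1 against a fall of 23.5 for Pde4b). The gene spans chromosome 4 from 102087543 to 102607259 on the plus strand (mm10) and has several start sites. The 300 bases around 4 of them, 250 before and 50 after the start, are shown here because Pde4b carries most of the findings that follow. Sequences are those of RefSeq for GRCm38.p6, on the plus strand, in lower case, and matches to the motifs searched are in capitals.

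chr4:102421305-102421604: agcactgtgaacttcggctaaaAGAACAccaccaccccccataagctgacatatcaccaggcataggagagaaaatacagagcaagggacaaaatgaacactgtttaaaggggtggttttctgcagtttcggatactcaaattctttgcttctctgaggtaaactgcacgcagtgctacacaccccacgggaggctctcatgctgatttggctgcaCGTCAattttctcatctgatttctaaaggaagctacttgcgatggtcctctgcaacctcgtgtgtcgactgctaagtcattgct
chr4:102569810-102570109: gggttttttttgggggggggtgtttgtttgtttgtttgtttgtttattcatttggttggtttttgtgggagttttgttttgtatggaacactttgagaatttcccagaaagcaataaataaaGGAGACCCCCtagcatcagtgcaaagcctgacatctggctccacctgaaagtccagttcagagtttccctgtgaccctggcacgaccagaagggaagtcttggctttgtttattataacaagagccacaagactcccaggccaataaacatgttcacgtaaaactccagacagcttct
chr4:102587308-102587607: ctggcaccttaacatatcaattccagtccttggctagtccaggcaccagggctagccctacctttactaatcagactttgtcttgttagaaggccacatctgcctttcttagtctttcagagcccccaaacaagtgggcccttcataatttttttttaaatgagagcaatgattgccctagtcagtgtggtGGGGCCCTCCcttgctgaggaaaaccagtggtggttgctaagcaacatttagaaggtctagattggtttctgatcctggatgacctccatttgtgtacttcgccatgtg
chr4:102589593-102589892: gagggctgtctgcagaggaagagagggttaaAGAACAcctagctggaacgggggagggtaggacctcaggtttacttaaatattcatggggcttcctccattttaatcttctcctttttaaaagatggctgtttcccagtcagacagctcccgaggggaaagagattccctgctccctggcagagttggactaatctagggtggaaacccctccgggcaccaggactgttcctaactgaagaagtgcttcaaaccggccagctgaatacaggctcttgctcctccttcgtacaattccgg

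The motifs were searched on both strands in the 11 windows that RefSeq gives for 6 of the 9 genes. The full glucocorticoid response element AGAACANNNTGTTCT was in 0 of the 11 windows, and in 0.00913% of the 32851 windows of all genes. The shorter motif AGAACA, which the full element contains, was in 3 of the 11, against 19.0% of all windows, and 2 of these belong to Pde4b. The CRE, TGACGTCA, was in 0 of the 11 (1.79% of all), and its core TGACG, which lies within the CRE, was in 3 of the 11 (20.8% of all), including the Pde4b window at 102421305. The AP-1 site TGANTCA was in 0 of the 11 (7.81% of all), and the NF-kB motif was in 2 of the 11 (8.46% of all), which were the Pde4b windows at 102569810 and 102587308. Gene-level counts do not tell which start site was used, and no binding was measured here.

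Pde4b mRNA was at 29.7, 28.4 and 30.1 CPM in the vehicle libraries of GRwt/wt in run 1 and at 10.1, 8.3 and 9.39 CPM in those with Dex. The run 2 libraries of GRwt/wt had 27.9, 31.3 and 29.1 CPM with vehicle and 6.02, 6.08 and 5.68 CPM with Dex. Vehicle and Dex libraries were far apart, and the vehicle levels of the runs lay in the same range. The fall was -1.67 ± 0.10 on the log2 scale in run 1 (SE, edgeR quasi-likelihood test, adjusted p = 4.78e-17) and -2.31 ± 0.10 in run 2 (adjusted p = 4.24e-23), which left 31.4% and 20.1% of the vehicle level. The fall in run 2 was the larger by 0.64 (difference of log2 changes -0.64, adjusted p = 0.00212).

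Pde4b still fell with Dex in each of the mutants with a receptor, by less than in GRwt/wt of the run. In GRD/D the vehicle libraries had 28.5, 27.9 and 27.8 CPM and the Dex libraries 13.8, 14.6 and 16.7 CPM, which is 53.5% of the vehicle level (log2 change -0.90 ± 0.09, adjusted p = 1.04e-09). In GRL/L the vehicle libraries had 30.1, 31.9 and 29.8 CPM and the Dex libraries 10.7, 9.45 and 10.2 CPM, or 33.0% (log2 change -1.60 ± 0.09, adjusted p = 1.45e-18). In GRD+L/D+L the gene started lower, at 8.53, 8.25 and 8.1 CPM, and fell to 4.33, 5.87 and 3.29 CPM with Dex, or 54.2% (log2 change -0.88 ± 0.14, adjusted p = 1.78e-05). GRko/ko cells had 10.1, 12.2 and 12.3 CPM with vehicle and 10.3, 12 and 14.1 CPM with Dex, so that the groups overlapped and the change did not pass the test (0.07 ± 0.11, adjusted p = 0.99).

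These differences from GRwt/wt were tested as such. The log2 change of Pde4b in GRD/D was smaller in size by 0.76 (95% interval 0.48 to 1.05, adjusted p = 0.00027), that in GRL/L by 0.71 (0.45 to 0.98, adjusted p = 0.000638) and that in GRko/ko by 1.74 (1.44 to 2.04, adjusted p = 4.7e-12). For GRD+L/D+L the difference was 0.79 (0.43 to 1.15, adjusted p = 0.00433), and without its Dex library 2, which has the highest level of the 3, it was 0.54 and did not pass (adjusted p = 0.143). The study used a model with a run term, in which GRwt/wt of both runs shares 1 Dex change. With that model fitted here in edgeR, the difference in GRL/L was 0.41 and did not pass (adjusted p = 0.264). All values given for the model of the study come from this edgeR fit and are not the study's own results. The comparisons within run 1 share the GRwt/wt libraries of that run. GRD+L/D+L and GRD/D had nearly the same log2 change of Pde4b, with a difference of 0.02 and an interval of -0.34 to 0.38 (adjusted p = 0.986).

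**Figure D2:**
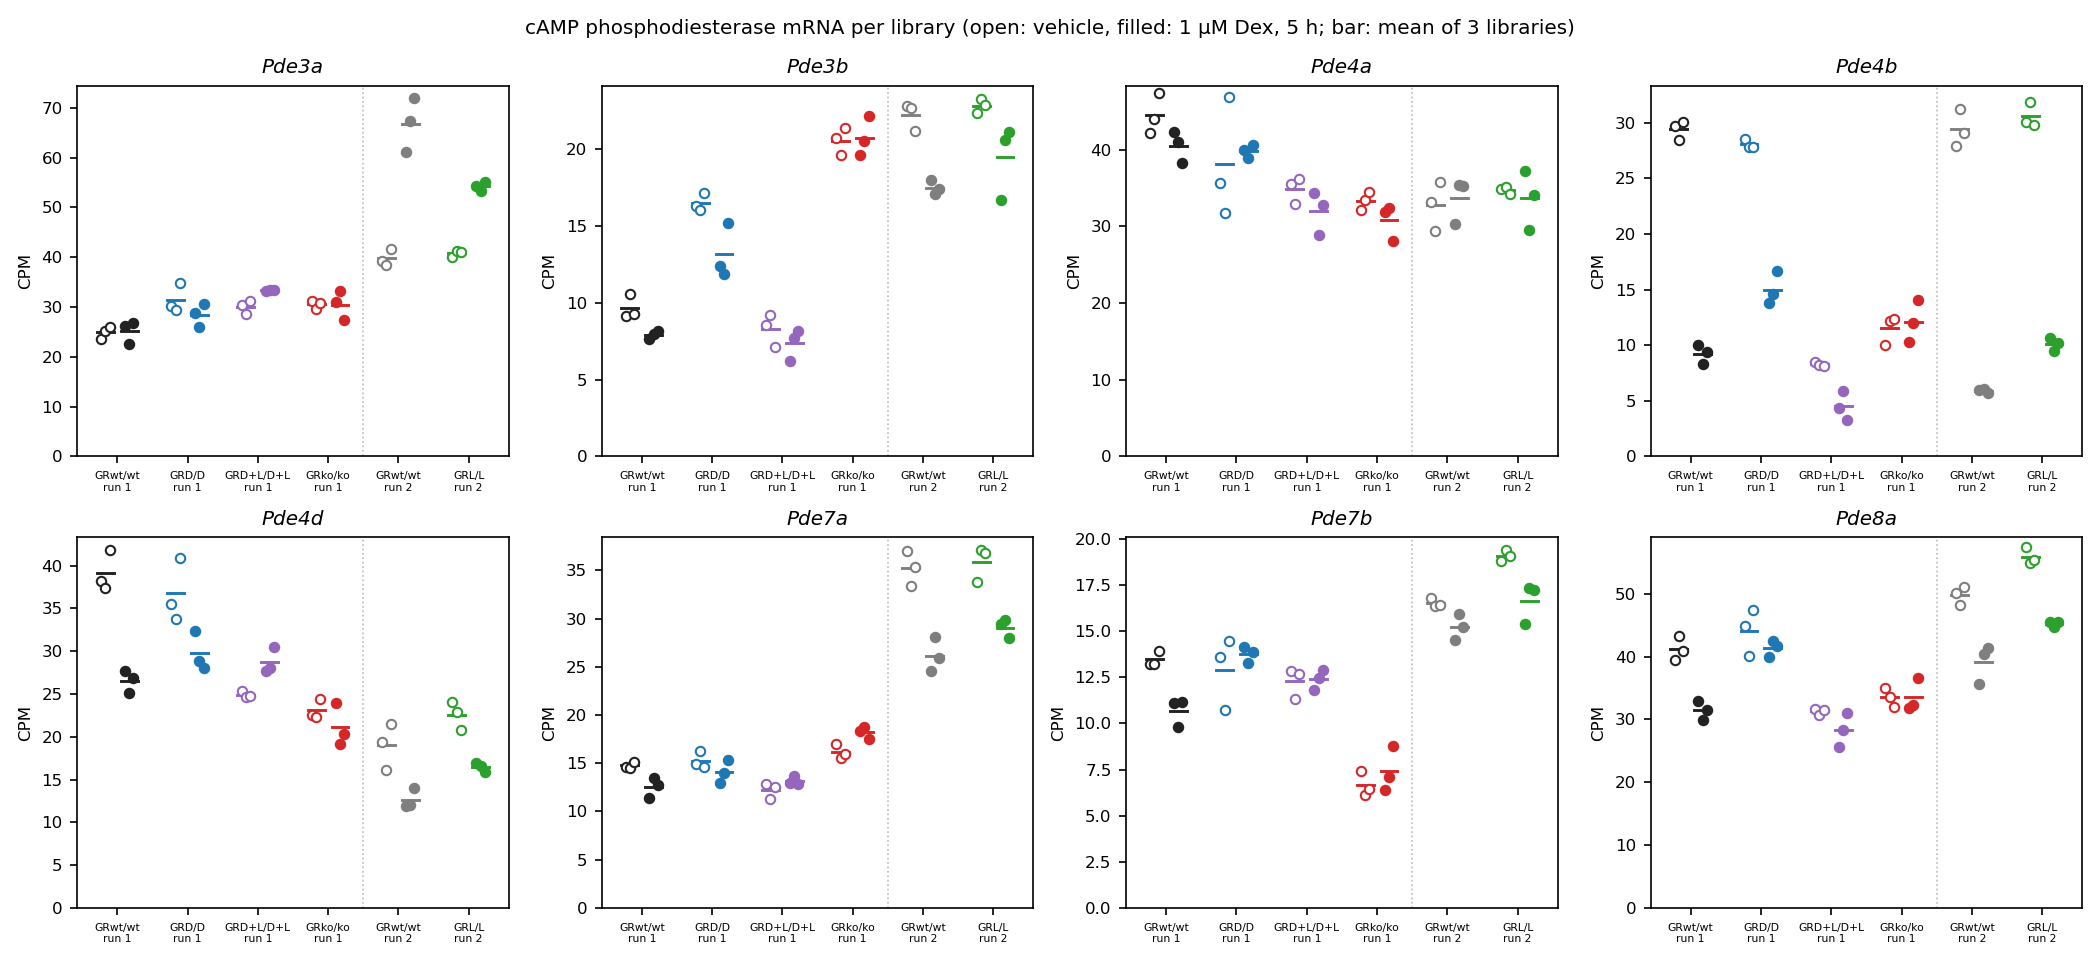
CPM of the 8 tested genes in each library, with open circles for vehicle, filled circles for Dex and a bar for the mean of 3 libraries, by genotype and run. Pde4b falls from about the same vehicle level in GRwt/wt, GRD/D and GRL/L, starts low in GRD+L/D+L and GRko/ko, and Pde3a rises with Dex in run 2, to 61.1 to 71.9 CPM in GRwt/wt.

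Between 0 and 6 of the 8 members tested changed with Dex, by genotype and run. Of the 8 genes, 5 fell and 0 rose in GRwt/wt of run 1, where 13.8% of all genes passed and 6.16% fell. Run 2 had 5 that fell and 1 that rose in GRwt/wt (31.5% of all genes passed, 16.7% fell and 14.8% rose) and again 5 that fell and 1 that rose in GRL/L (19.0% passed, 10.3% fell and 8.74% rose). In GRD/D 3 fell (11.8% of all genes passed and 6.25% fell), and in GRD+L/D+L 1 did, which was Pde4b (5.02% passed and 1.89% fell). With 1 library left out, the count was 4 in GRwt/wt of run 1 and 3 without its vehicle library 3, and in GRD/D it was 1 without Dex library 2 or vehicle library 3. In GRko/ko 0 of the 8 passed, as did 0 of all genes (0.00%). At an unadjusted p under 0.05, edgeR listed 835 of all genes there, with Pde7a among them. These were 5.39% of all genes, near the share that the limit alone gives. DESeq2 called 1 gene, which was not of the set. The median log2 change of the 8 genes was -0.31 in GRwt/wt of run 1 and -0.35 in run 2, beside a median near 0 over all genes. With a limit of 1 on the absolute log2 change, which the study used, Pde4b was the 1 member that passed in GRwt/wt of run 1 (2.01% of all genes), in GRwt/wt of run 2 (4.45%) and in GRL/L (2.54%), and 0 members passed in GRD/D (0.975%) and GRD+L/D+L (0.400%).

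**Figure D3:**
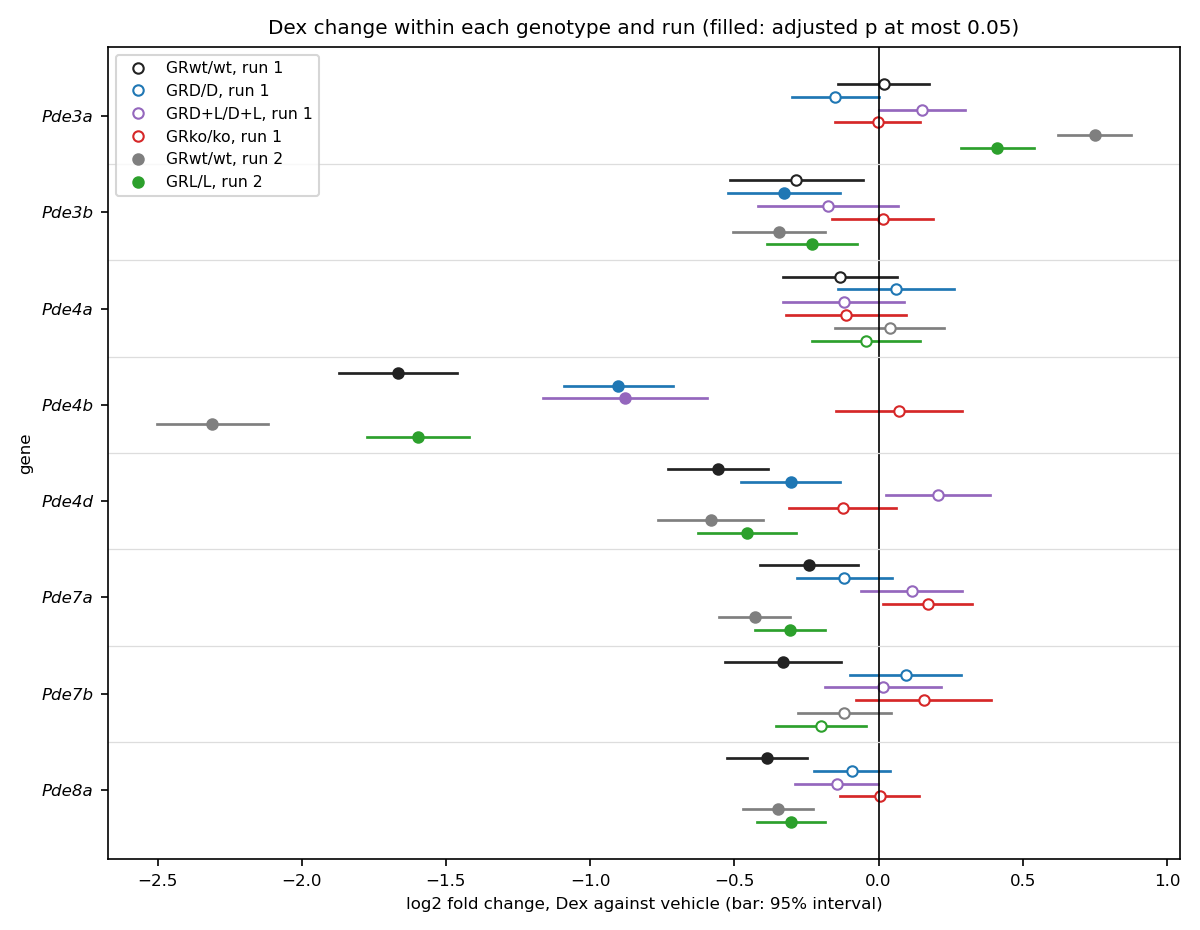
Log2 fold change of Dex against vehicle for the 8 tested genes in each genotype and run, with 95% intervals as bars and filled symbols where the adjusted p was at most 0.05. Pde4b lies far to the left of the other genes, between -0.88 and -2.31 in the genotypes with a receptor, and the GRko/ko intervals lie near 0.

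Pde4d was the other PDE4 gene that responded. Its product is cAMP-specific like that of Pde4b. The gene lies on chromosome 13 (108449948 to 109953461, plus strand). Pde4d was at 38.1, 37.3 and 41.8 CPM with vehicle and 27.7, 25.1 and 26.8 CPM with Dex in GRwt/wt of run 1 (log2 change -0.56 ± 0.09, adjusted p = 2.87e-06). Run 2 GRwt/wt libraries had 19.4, 16.2 and 21.4 CPM with vehicle and 11.9, 12.1 and 14 CPM with Dex (-0.58 ± 0.09, adjusted p = 1.25e-06). The fall was thus of like size from unlike starting levels, and the difference between runs was -0.03 with an interval of -0.27 to 0.22. In GRL/L Pde4d went from 24.1, 22.8 and 20.8 CPM to 16.9, 16.6 and 15.9 CPM (-0.46 ± 0.08, adjusted p = 5.59e-05), and the difference from GRwt/wt did not pass (0.13, interval -0.12 to 0.38).

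In GRD/D, Pde4d went from 35.5, 33.8 and 40.9 CPM to 32.4, 28.9 and 28.1 CPM (-0.30 ± 0.08, adjusted p = 0.0122), a fall that did not pass without Dex library 2 (adjusted p = 0.0702), Dex library 3 (0.0806) or vehicle library 3 (0.107). In GRD+L/D+L the Dex libraries lay above the vehicle libraries, with 27.6, 28.1 and 30.5 CPM against 25.3, 24.6 and 24.8 CPM, but the change of 0.21 ± 0.09 did not pass over all genes (adjusted p = 0.247). Its difference from GRwt/wt did pass, at 0.76 (interval 0.51 to 1.01, adjusted p = 3.62e-05). GRko/ko had 22.5, 22.3 and 24.4 CPM with vehicle and 24, 19.1 and 20.4 CPM with Dex (-0.12 ± 0.09, adjusted p = 0.954). The difference of that change from GRwt/wt passed (0.43, interval 0.18 to 0.69, adjusted p = 0.0213), but not without GRko/ko Dex library 1 (0.34, adjusted p = 0.111), GRko/ko vehicle library 1 (0.0541) or 2 (0.055), GRwt/wt Dex library 2 (0.0612) or GRwt/wt vehicle library 3 (0.0647). Between GRD+L/D+L and GRD/D the log2 change of Pde4d differed by 0.51 (interval 0.26 to 0.76, adjusted p = 0.0814), and this passed without Dex library 1 of GRD/D (0.58, adjusted p = 0.0416) and with no filter on low counts (0.52, adjusted p = 0.00392). Of all genes, 0.0646% passed for that difference, and of the 8 genes 0 did. At an unadjusted p under 0.05 there were 2 of the 8, Pde4d and Pde3a, among 1579 genes (10.2% of all). DESeq2 called 30 genes and 0 of the 8.

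Pde4a, the most abundant PDE4 gene per kb, showed no change with Dex that passed in any genotype. The gene lies on chromosome 9 (21165714 to 21213248, plus strand) and its product, like those of Pde4b and Pde4d, is cAMP-specific. In GRwt/wt of run 1 it was at 42.2, 44 and 47.4 CPM with vehicle and 42.3, 41 and 38.3 CPM with Dex, which overlap. The log2 changes over the 6 combinations of genotype and run lay between -0.13 and 0.06. The 95% interval was -0.33 to 0.06 in GRwt/wt of run 1 and -0.15 to 0.23 in run 2, far from the change of Pde4b.

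Pde8a, which encodes a high-affinity cAMP enzyme with a PAS domain and lies on chromosome 7 (81213596 to 81334533, plus strand), fell by a smaller amount in the cells with an intact DNA-binding domain. It went from 39.5, 43.2 and 40.9 CPM to 33, 29.9 and 31.4 CPM in GRwt/wt of run 1 (-0.39 ± 0.07, adjusted p = 3.47e-05). In run 2 it went from 50.1, 48.2 and 51.1 CPM to 35.6, 40.4 and 41.4 CPM in GRwt/wt (-0.35 ± 0.06, adjusted p = 1.12e-05) and from 57.4, 54.8 and 55.4 CPM to 45.5, 44.8 and 45.5 CPM in GRL/L (-0.30 ± 0.06, adjusted p = 0.000116). The vehicle and Dex libraries did not overlap in these genotypes. They overlapped in GRD/D (-0.09 ± 0.07, adjusted p = 0.415), in GRD+L/D+L (-0.15 ± 0.07, adjusted p = 0.343) and in GRko/ko (0.00 ± 0.07, adjusted p = 1). The difference from GRwt/wt passed for GRko/ko (0.39, interval 0.20 to 0.59, adjusted p = 0.00522), and not for GRD/D (0.30, 0.10 to 0.49, adjusted p = 0.0845) or GRD+L/D+L (0.24, 0.04 to 0.44, adjusted p = 0.258). For GRD/D it passed without vehicle library 3 of GRD/D (0.35, adjusted p = 0.029) and in the model of the study (0.27, adjusted p = 0.0267).

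The PDE7 genes encode rolipram-insensitive cAMP enzymes. Pde7a (chromosome 3, 19223108 to 19311322, minus strand) fell in run 2, from 37, 33.3 and 35.4 CPM to 24.6, 28.1 and 25.9 CPM in GRwt/wt (-0.43 ± 0.06, adjusted p = 2.75e-07) and from 33.8, 37.1 and 36.8 CPM to 29.4, 29.8 and 27.9 CPM in GRL/L (-0.31 ± 0.06, adjusted p = 0.000137). In GRwt/wt of run 1 it was at 14.7, 14.5 and 15.1 CPM and at 11.3, 13.4 and 12.8 CPM, a fall of -0.24 ± 0.08 that stood at the threshold (adjusted p = 0.0471). That call did not pass in 5 of the 7 alternative settings (adjusted p from 0.0502 to 0.165) or without any of 5 of the 6 libraries, with an adjusted p of 0.272 without Dex library 1, 0.0843 without Dex library 3, and 0.0965, 0.0756 and 0.139 without vehicle libraries 1, 2 and 3. In GRko/ko Pde7a was at 17, 15.5 and 16 CPM with vehicle and 18.3, 18.8 and 17.5 CPM with Dex (0.17 ± 0.08, adjusted p = 0.88), and the difference of its Dex change from GRwt/wt was 0.41 (interval 0.18 to 0.64, adjusted p = 0.0147), which did not pass without Dex library 1 of GRwt/wt (0.35, adjusted p = 0.0703). For GRD+L/D+L that difference was 0.36 (adjusted p = 0.118), and it passed in the model of the study (0.48, adjusted p = 0.00155).

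Pde7b lies on chromosome 10 (20398004 to 20725078, minus strand). It fell in GRwt/wt of run 1 only, from 13.2, 13.2 and 13.9 CPM to 11.1, 9.79 and 11.2 CPM (-0.33 ± 0.10, adjusted p = 0.0178), and did not pass there without Dex library 2 (adjusted p = 0.11) or vehicle library 3 (0.0749). In run 2 it went from 16.8, 16.4 and 16.4 CPM to 14.5, 15.9 and 15.2 CPM (-0.12 ± 0.08, adjusted p = 0.274). These changes did not differ between the runs by a margin that passed (0.21, interval -0.04 to 0.47, adjusted p = 0.405), so that a difference between the runs was not shown. In the model of the study, which gives GRwt/wt of both runs the same Dex change, that change was -0.20 and passed (adjusted p = 0.0123). In GRL/L the change was -0.20 ± 0.08 (adjusted p = 0.0681), and it passed in the libraries of run 2 alone (-0.19, adjusted p = 0.0469). The changes in GRD/D (0.09), GRD+L/D+L (0.02) and GRko/ko (0.16) did not pass. The difference of GRD/D from GRwt/wt was 0.42 (adjusted p = 0.088), and it passed without GRD/D vehicle library 3 (0.52, adjusted p = 0.0263). The difference between GRko/ko and GRwt/wt passed (0.49, adjusted p = 0.0361), but in 4 of the 7 alternative settings it did not (adjusted p from 0.0506 to 0.0651). Nor did it pass without GRko/ko Dex library 3 (adjusted p = 0.21), GRko/ko vehicle library 2 (0.114) or 3 (0.0733), GRwt/wt Dex library 2 (0.0977), or GRwt/wt vehicle library 1 (0.0526) or 3 (0.0719).

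The PDE3 genes went opposite ways in run 2. Pde3a, best known from heart muscle, platelets and the oocyte, lies on chromosome 6 (141249269 to 141507448, plus strand). It rose from 39.1, 38.5 and 41.6 CPM to 61.1, 67.4 and 71.9 CPM in GRwt/wt of run 2 (0.75 ± 0.06, adjusted p = 3.42e-13) and from 40, 41.3 and 41 CPM to 54.4, 53.2 and 55.1 CPM in GRL/L (0.41 ± 0.06, adjusted p = 1.75e-06). No such change passed in run 1, where GRwt/wt had 23.6, 25.2 and 26 CPM with vehicle and 26.1, 22.6 and 26.9 CPM with Dex (0.02 ± 0.08, interval -0.14 to 0.18). The Dex change of Pde3a in GRwt/wt thus differed between the runs by 0.73 (interval 0.53 to 0.93, adjusted p = 9.49e-07). The runs also differed in smooth muscle markers, in Y-linked transcripts and in fibroblast markers such as Lum (a mean of 7.94 and 199 CPM in GRwt/wt). Further differences were in the adipocyte marker sum (6.68 to 22.2 CPM in GRwt/wt of run 1 and 50.2 to 108 CPM in run 2) and in Acta1 (a mean of 672 and 6.55 CPM). The part of these in the difference of the Pde3a change was not tested. In GRD/D, GRD+L/D+L and GRko/ko the log2 change was -0.15, 0.15 and 0.00 and did not pass. In the model of the study, which gives GRwt/wt of both runs the same Dex change, that change was 0.46 (adjusted p = 5.31e-05), and the differences of GRD/D (-0.61, adjusted p = 0.00853) and GRko/ko (-0.46, adjusted p = 0.033) from it passed.

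The rise of Pde3a in GRL/L was smaller than in GRwt/wt by 0.34 (difference -0.34, interval -0.52 to -0.16, adjusted p = 0.0311). This call rests on small margins. It did not pass within the libraries of run 2 alone (adjusted p = 0.0519) or in the model of the study (-0.04, adjusted p = 0.965), and it did not pass without GRL/L Dex library 1 (adjusted p = 0.0622) or 2 (0.0756), GRL/L vehicle library 2 (0.0771) or 3 (0.0633), GRwt/wt Dex library 5 (0.0561) or 6 (0.0933), or GRwt/wt vehicle library 4 (0.0777) or 5 (0.0945). The exons of Pde3a overlap those of the antisense gene Gm28523, which had 6 to 34 counts per library, and those of Pde7a overlap those of the antisense gene Gm16093, with 0 to 3 counts. The strand setting of the counting is not given in the sources used here, so reads in the shared stretches cannot be assigned with certainty.

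Pde3b, the form that mediates the antilipolytic action of insulin in fat cells, lies on chromosome 7 (114415281 to 114539251, plus strand). It fell in GRwt/wt of run 2 from 22.8, 22.7 and 21.2 CPM to 18, 17.1 and 17.4 CPM (-0.34 ± 0.08, adjusted p = 0.000579). GRD/D went from 16.3, 16 and 17.1 CPM to 12.4, 11.9 and 15.2 CPM (-0.33 ± 0.10, adjusted p = 0.0181), and GRL/L from 22.4, 23.3 and 22.9 CPM to 16.7, 20.6 and 21.2 CPM (-0.23 ± 0.08, adjusted p = 0.0288). The fall in GRD/D did not pass without Dex library 1 (adjusted p = 0.0779), Dex library 2 (0.156) or vehicle library 3 (0.0574), and that in GRL/L did not pass without Dex library 1 (-0.13, adjusted p = 0.316) or vehicle library 2 (0.0925) or 3 (0.0684). In GRwt/wt of run 1 the levels were lower and did not overlap, with 9.15, 10.6 and 9.28 CPM against 7.62, 7.97 and 8.17 CPM, but the change of -0.28 ± 0.12 did not pass (adjusted p = 0.0972). No difference of the Dex change of Pde3b from GRwt/wt passed in any mutant. In the model of the study the change of Pde3b in GRwt/wt was -0.32 (adjusted p = 0.000119), and the difference for GRko/ko passed (0.34, adjusted p = 0.0292).

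Counted over the set, the Dex change differed from GRwt/wt of the same run for 1 of the 8 genes in GRD/D (3.28% of all genes passed), 2 in GRD+L/D+L (3.20%), 5 in GRko/ko (8.33%) and 2 in GRL/L (1.85%). Pde4b was among them in each mutant. The changes in GRwt/wt differed between the runs for 2 of the 8, Pde4b and Pde3a (7.00%).

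A further question was whether the receptor genotype sets the level of these genes before Dex is added. In vehicle-treated cells GRD+L/D+L and GRko/ko stood apart from GRwt/wt, while GRL/L was close to it. Relative to GRwt/wt of run 1, 5 of the 8 genes were lower and 1 higher in GRD+L/D+L (29.6% of all genes passed, 15.8% lower and 13.8% higher), and in GRko/ko 5 were lower and 2 higher in the comparison with the largest share of all genes passing (45.5%, with 21.2% lower and 24.3% higher). In GRD/D 2 were higher and 0 lower (9.37% of all genes passed and 5.57% were higher), and in GRL/L 1 was higher (11.3% passed and 6.81% were higher). With the limit of 1 on the absolute log2 difference, 1 member passed in GRD+L/D+L, Pde4b (5.57% of all genes), 3 in GRko/ko, Pde4b, Pde7b and Pde3b (14.2%), and 0 in GRD/D (2.12%) and GRL/L (1.29%).

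Pde4b showed the largest log2 difference of the 8 genes in GRD+L/D+L and in GRko/ko. Its vehicle level was lower in GRD+L/D+L by 1.83 on the log2 scale (log2 difference -1.83 ± 0.10, adjusted p = 1.08e-17) and in GRko/ko by 1.35 (-1.35 ± 0.10, adjusted p = 1.35e-15). The 3 GRD+L/D+L vehicle libraries, at 8.1 to 8.53 CPM, lay within the range of the Dex-treated GRwt/wt libraries of that run, at 8.3 to 10.1 CPM, or just below it. In GRD/D and in GRL/L the vehicle level of Pde4b did not differ from GRwt/wt by a margin that passed (-0.07, interval -0.24 to 0.10, and 0.06, -0.10 to 0.21). Some other markers moved with genotype in the same cultures, while others of the same lists moved less or another way. Over the 6 libraries of a genotype, Pdgfra averaged 16.6 CPM in GRD+L/D+L, 31.6 CPM in GRko/ko and 54 CPM in GRwt/wt of run 1. The values in that order were 38, 44.2 and 83.7 CPM for Dcn, 2.56, 16.5 and 7.94 CPM for Lum, and 125, 66.3 and 26.5 CPM for Des. Among the other fibroblast markers they were 522, 793 and 537 CPM for Thy1 and 1000, 3000 and 1060 CPM for Col3a1. Fn1 had 19200, 19200 and 18300 CPM. Among the smooth muscle markers, Acta2 had 7510, 6390 and 7430 CPM and Cnn1 had 280, 328 and 300 CPM. The macrophage marker sum was lower than in GRwt/wt in GRD+L/D+L and higher in GRko/ko. The part of these in the vehicle level of Pde4b was not tested. For the comparisons with GRD+L/D+L and GRko/ko in run 1, genotype cannot be told apart from sex, nor for GRko/ko from the background of the knockout line.

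Pde4d was likewise lower with vehicle in GRD+L/D+L (-0.65 ± 0.09, adjusted p = 1.03e-07) and in GRko/ko (-0.76 ± 0.09, adjusted p = 7.23e-10), and its level in vehicle-treated GRD+L/D+L cells, 24.6 to 25.3 CPM, came near that of Dex-treated GRwt/wt cells, 25.1 to 27.7 CPM. Pde4a was lower by 0.35 in GRD+L/D+L (log2 difference -0.35, adjusted p = 0.00646) and by 0.42 in GRko/ko (-0.42, adjusted p = 0.000704), although Dex did not move it. In GRD/D its vehicle libraries spread widely, from 31.8 to 46.9 CPM, and the difference of -0.22 (adjusted p = 0.169) became -0.40 and passed without vehicle library 3 (adjusted p = 0.00125). Pde8a was lower by 0.39 and 0.30 in GRD+L/D+L and GRko/ko (log2 differences -0.39, adjusted p = 1.62e-05, and -0.30, adjusted p = 0.00032). The 4 members Pde4a, Pde4b, Pde4d and Pde8a thus had lower vehicle levels in both genotypes. Pde8b, which is no member, was lower in GRko/ko (-1.44, adjusted p = 3.87e-19) and did not pass in GRD+L/D+L (-0.11, adjusted p = 0.286).

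The PDE3 and PDE7 genes went in either direction. Pde3a was slightly higher than in GRwt/wt in GRD/D (0.34, adjusted p = 0.00175), GRD+L/D+L (0.27, adjusted p = 0.00609) and GRko/ko (0.29, adjusted p = 0.00142). Pde3b was higher in GRD/D, at 16 to 17.1 CPM against 9.15 to 10.6 CPM (0.78 ± 0.10, adjusted p = 3.69e-07), and in GRko/ko, at 19.6 to 21.4 CPM (1.09 ± 0.10, adjusted p = 1.41e-12), but not in GRD+L/D+L (-0.21 ± 0.12, adjusted p = 0.162). The macrophage marker sum was higher than in GRwt/wt of run 1 in GRD/D and GRko/ko and lower in GRD+L/D+L. It was also higher in GRL/L, at 730 to 1030 CPM against 456 to 510 CPM in GRwt/wt of run 2. There the vehicle level of Pde3b did not differ by a margin that passed (0.04, adjusted p = 0.826). The part of macrophages in the level of Pde3b was not tested. Pde7b was lower in GRko/ko, at 6.12 to 7.41 CPM against 13.2 to 13.9 CPM (-1.02 ± 0.11, adjusted p = 9.61e-11), and close to GRwt/wt in GRD/D (-0.06) and GRD+L/D+L (-0.13). Pde7a was lower in GRD+L/D+L (-0.28, adjusted p = 0.0109), which did not pass without its vehicle library 2 (adjusted p = 0.077). In GRL/L the gene that passed was Pde4d (0.25, adjusted p = 0.0406), and it did not pass without GRL/L vehicle library 1 (adjusted p = 0.208) or 2 (0.113), without GRwt/wt vehicle library 4 (0.0717) or 5 (0.371), with DESeq2 (0.063), with its size factors (0.0507) or in run 2 alone (0.0973).

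**Figure D4:**
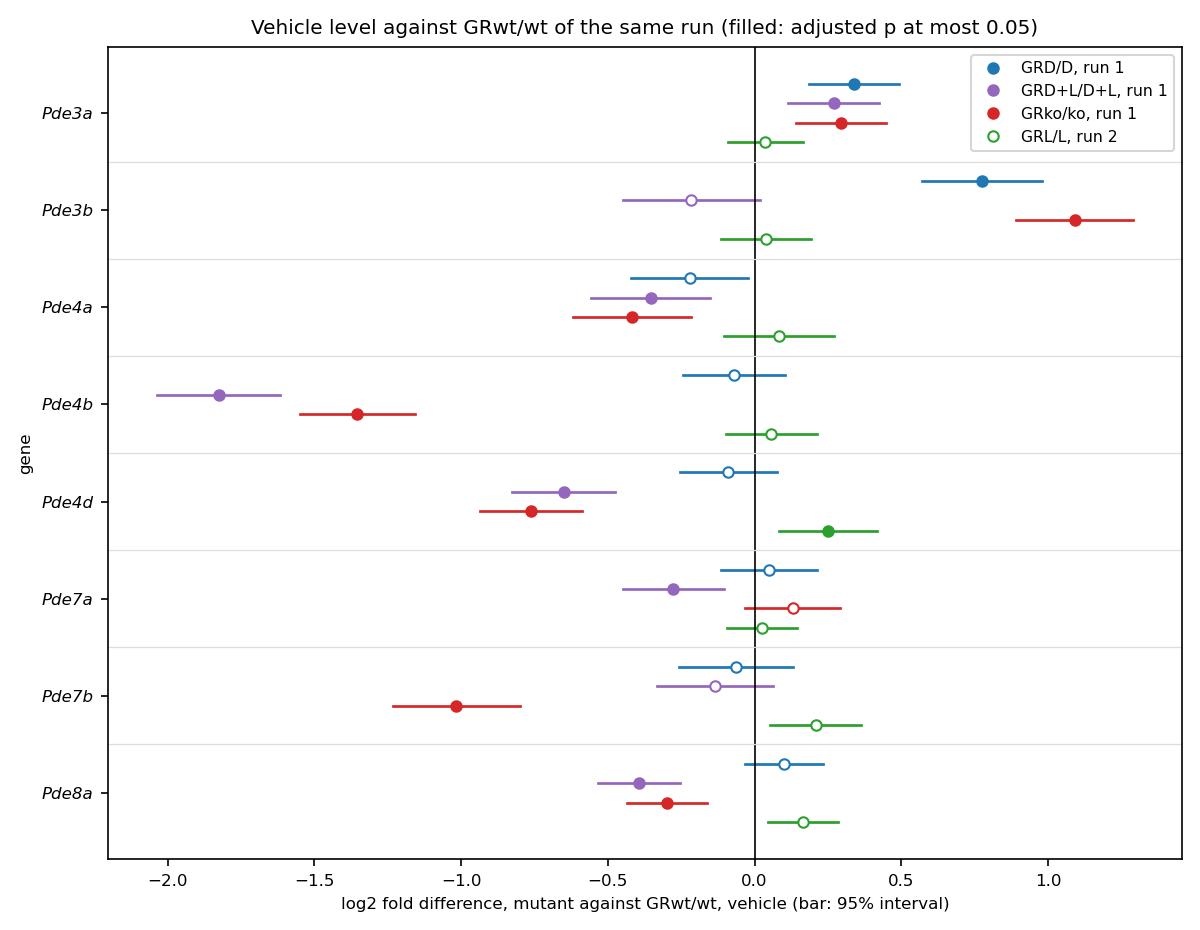
Log2 difference in the vehicle level of the 8 tested genes between each mutant and GRwt/wt of the same run, with 95% intervals as bars and filled symbols where the adjusted p was at most 0.05. Pde4b lies at -1.83 in GRD+L/D+L and -1.35 in GRko/ko, Pde3b at 0.78 in GRD/D and 1.09 in GRko/ko, and the GRL/L intervals lie close to 0.

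Genotype and Dex together gave an order of the Pde4b level across the groups of run 1. Vehicle-treated GRwt/wt and GRD/D were the highest, with 28.4 to 30.1 and 27.8 to 28.5 CPM. GRD/D with Dex came next at 13.8 to 16.7 CPM, followed by GRko/ko with Dex (10.3 to 14.1) and with vehicle (10.1 to 12.3), GRwt/wt with Dex (8.3 to 10.1), GRD+L/D+L with vehicle (8.1 to 8.53) and GRD+L/D+L with Dex (3.29 to 5.87). The libraries of GRwt/wt and GRD/D with vehicle overlapped, as did those of GRD/D with Dex and GRko/ko with Dex, those of GRko/ko with either treatment, and those of GRwt/wt with Dex and GRD+L/D+L with vehicle. GRwt/wt with Dex lay just below GRko/ko with vehicle without overlap, and the Dex-treated GRD+L/D+L libraries were below all others. In CPM rather than in folds, Dex lowered the mean by 20.2 CPM in GRwt/wt and by 3.79 CPM in GRD+L/D+L.

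The genes whose pattern was most like that of Pde4b were sought over the means of 10 groups, each relative to vehicle-treated GRwt/wt of its run, among 11780 genes with enough counts. Pearson's r was 0.951 for Tnfsf11, which encodes the osteoclast factor RANKL, 0.942 for the endothelin receptor gene Ednra, 0.933 for Kdm8, 0.932 for Plxdc1 and 0.929 for Zc3hav1l. These values are descriptions, since the 10 points share the GRwt/wt vehicle libraries and were selected from many genes. For the other members the closest gene was Sh3d19 for Pde8a (0.963), Hoxa11 for Pde4a (0.978), 1700020I14Rik for Pde4d (0.979), Cdk17 for Pde7a (0.959), Dis3l for Pde7b (0.981), Gspt2 for Pde3a (0.913) and Pkdcc for Pde3b (0.991). No 2 members had the same gene in this place. With 1 gene taken from 11780 for each, this does not show how alike the members are.

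The rest of the cAMP pathway was examined with 7 lists, whose counts are to be read beside the 13.8% of all genes that passed with Dex in GRwt/wt of run 1 and the 31.5% in run 2. Of 9 tested genes with other phosphodiesterase names, 2 rose and 1 fell in GRwt/wt of run 1, and 1 rose and 5 fell in run 2. Not all genes of that list encode enzymes that degrade cAMP. Pde8b, which encodes an enzyme close to that of Pde8a, fell in both runs (log2 change -0.82, adjusted p = 1.6e-11, and -1.20, adjusted p = 3.27e-10), in GRD/D (-0.62), GRD+L/D+L (-0.52) and GRL/L (-1.10), but not in GRko/ko (0.04, adjusted p = 0.99). Its level differed between runs, with 43.6 to 49.6 CPM in the vehicle libraries of GRwt/wt in run 1 and 5.31 to 6.02 CPM in run 2.

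On the side where cAMP is made, 2 of 9 adenylyl cyclase genes rose and 2 fell in GRwt/wt of run 1, and 3 rose and 3 fell in run 2. Adcy5 rose in run 1 (0.66) and in run 2 (1.44). Of 15 genes of Gs-coupled receptors, G proteins and their regulators, 1 rose and 2 fell in run 1 and 3 rose and 7 fell in run 2. The prostaglandin receptor genes Ptgir (-1.23 and -0.61) and Ptger4 (-0.58 and -1.29) fell in both runs. Adora2a fell in run 2 (-1.96, adjusted p = 0.02), from 5 to 7 counts to 0 to 2 counts, with -0.71 in run 1 (adjusted p = 0.41). Rgs2 rose in GRwt/wt of both runs (0.56 and 1.65), and Rgs4 fell in GRwt/wt of run 2 (-1.07) with -0.05 in run 1 (adjusted p = 0.72). The mean of Rgs2 went the other way with Dex in GRD/D (10.2 to 7.28 CPM) and GRD+L/D+L (7.09 to 4.2 CPM). In GRL/L it went up, from 31.1 to 54.8 CPM.

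Downstream, 1 of 12 effector genes rose and 2 fell in run 1, and 1 rose and 6 fell in run 2, among them Rapgef4, which encodes an EPAC factor (-2.0 in run 2, adjusted p = 0.00131, on 3 to 30 counts per library). Of 9 genes of the CREB family and its coactivators 2 fell in each run, and of 10 kinase anchor genes 3 rose in run 1, and 3 rose and 3 fell in run 2. Of 10 immediate CREB target genes, 3 rose and 5 fell in run 1 and 3 rose and 6 fell in run 2. The nuclear receptor genes Nr4a1 (-1.36 and -0.78), Nr4a2 (-1.28 and -0.33) and Nr4a3 (-1.69 and -0.70) fell in both runs. Areg, an EGF receptor ligand gene, fell as well (-1.38 and -1.46), but on few counts. It went from 18 to 41 counts per library to 9 to 18 in run 1, and from 11 to 23 to 4 to 8 in run 2. In contrast, Sik1, a kinase that restrains CREB coactivators (2.08 and 1.94), and the clock gene Per1 (1.91 and 2.01) rose. The CREB target list thus moved in both directions while Pde4b, Pde4d and Pde8a fell. Neither cAMP nor the activity of CREB was measured here. In GRko/ko 0 of all genes passed (0.00%), and so 0 genes of any of the 7 lists did.

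**Figure D5:**
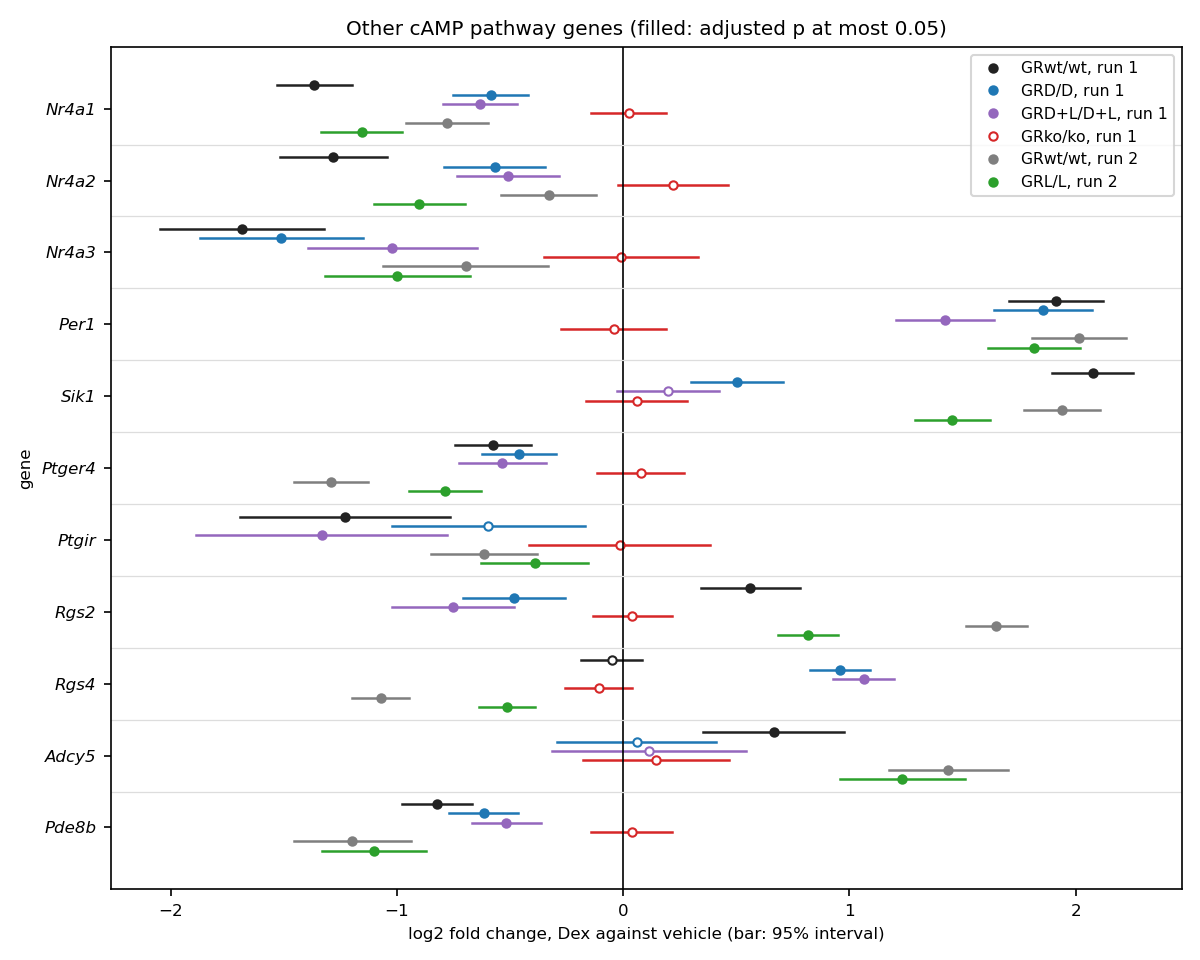
Log2 fold change of Dex against vehicle for 11 other cAMP pathway genes in each genotype and run, with 95% intervals as bars and filled symbols where the adjusted p was at most 0.05. The Nr4a genes and Pde8b lie to the left of 0 and Per1 to the right in every genotype with a receptor, while Rgs4 is at 0.96 in GRD/D and 1.06 in GRD+L/D+L and at -0.05 in GRwt/wt of the same run.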

How the data were processed

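RNA-seq of MEFs was deposited by the authors as whole-number read counts per gene, without normalization, for 36 libraries. The authors prepared TruSeq libraries for a NextSeq instrument, aligned them to mm10 with HISAT2 2.1.0 and kept reads that mapped once, which featureCounts 2.0.0 assigned to genes, as the paper and the submitters' processing notes give it. The strand setting and annotation are not given in the sources used here. Genotype, treatment and replicate number were taken from the labels. The runs follow the paper's account of an experiment in parts, in which GRL/L was profiled alongside GRwt/wt in the second. Genes were filtered by filterByExpr and scaled by TMM, and 15489 genes, with 99.93% of all counts, were tested in edgeR 4.0.16 (R 4.3.3) with the quasi-likelihood F test over 12 groups in 1 fit of 36 libraries. P-values were adjusted by Benjamini-Hochberg over all genes, and a gene passed at an adjusted p of at most 0.05. The study's own limit on the log2 change is given where used. The biological coefficient of variation was 0.0513. Libraries of a group differed by 1.4 to 7.24 times the sampling noise, so none was a copy of another. CPM are TMM-scaled, and lengths are those of the exons in GENCODE vM21. The script was tested on simulated counts. The members and lists were chosen with earlier results of these data known. All 9 members are named, with the genes of 7 pathway lists that passed with an absolute log2 change of at least 1 in GRwt/wt (1 of them is not reported here), and the genes most like each member. Alternatives were DESeq2 1.42.0, its size factors, other filters, separate runs, a replicate block and leaving out each library. A further one was the model of the study with a run term, fitted in edgeR where the study used DESeq2. P-values rest on the spread between libraries within groups, pooled over the 12 groups for each gene and drawn toward that of other genes. A group with a wide spread is thus not judged by its own spread alone. The paper gives 3 cultures from different mice per genotype. All libraries of a genotype in a run were alike in having or lacking Y-linked transcripts. How far the libraries of a group stand for separate embryos cannot be told from the counts.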

Additional observations from a re-analysis of the deposited data

Results flagged for a closer look

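The Dex change of several phosphodiesterase genes differed between cell groups in a test of the difference itself. For Pde4b the log2 change differed from GRwt/wt of the same run by 0.76 in GRD/D, 0.79 in GRD+L/D+L, 1.74 in GRko/ko and 0.71 in GRL/L, and in GRwt/wt it differed between run 2 and run 1 by -0.64. For Pde4d the difference was 0.76 in GRD+L/D+L and 0.43 in GRko/ko. In GRko/ko, Pde7a (0.41), Pde7b (0.49) and Pde8a (0.39) differed from GRwt/wt as well. For Pde3a the difference was -0.34 between GRL/L and GRwt/wt, and 0.73 between run 2 and run 1 in GRwt/wt. The mutants of run 1 were compared with the same GRwt/wt libraries. Groups of 3 libraries are too small for a search for single outlying libraries.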

How the results depend on the processing

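Of 848 comparisons of a member under another setting, 822 kept their direction or their side of the threshold, 15 no longer passed and 11 passed newly, and of 1056 with 1 library left out these were 1010, 42 and 4. No called change turned its direction. Values that had not passed changed sign in 10 and 48 cases. With a limit of 1 on the absolute log2 change, the number of members that passed with Dex was 1 in GRwt/wt of run 1, 1 in run 2, 0 in GRD/D, 0 in GRD+L/D+L and 1 in GRL/L, and for the vehicle level 0 in GRD/D, 1 in GRD+L/D+L, 3 in GRko/ko and 0 in GRL/L. In the model of the study with 10 groups and a run term, the Dex change differed from GRwt/wt for 3 members in GRD/D and 0 in GRL/L. With run 2 alone it differed for 1 in GRL/L, and the vehicle level of GRL/L then differed for 0, as with DESeq2 and with its size factors. With no filter on low counts, GRD+L/D+L differed from GRD/D for 1 member. With 1 library left out, the number of members with a Dex change was 3 to 4 in GRwt/wt of run 1, 6 in run 2, 1 to 3 in GRD/D, 1 in GRD+L/D+L, 5 to 6 in GRL/L and 0 in GRko/ko. Differences in the Dex change then held for 1 to 3 members in GRD/D, 1 to 2 in GRD+L/D+L, 3 to 5 in GRko/ko, 1 to 2 in GRL/L, 0 to 1 between GRD+L/D+L and GRD/D, and 2 between the runs. Differences in the vehicle level held for 2 to 3 members in GRD/D, 5 to 6 in GRD+L/D+L, 7 in GRko/ko and 0 to 1 in GRL/L. The cause of these changes was not tested.

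Vehicle and Dex libraries share replicate numbers, but 3 of 18 same-numbered pairs had a correlation of their deviations over 0.1 (range -0.16 to 0.24), so the numbers were not used as pairs. With the replicate number as a block, 4 members passed in GRwt/wt of run 1 and 6 in run 2, with 2020 and 4767 of all genes in place of 2144 and 4878. Of 96 tests of a member with the block, 2 changed their call, the Dex change of Pde7a in GRwt/wt of run 1 (adjusted p = 0.0884) and the difference of Pde7b in GRko/ko (0.0506).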
